A study of Mus musculus with 7 samples.

Results

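TAK1 is the kinase encoded by Map3k7, and it works in a complex with the adaptor proteins TAB1, TAB2 and TAB3, encoded by Tab1, Tab2 and Tab3. These 4 genes were taken by symbol from the 42689 mouse genes listed in the deposited tables. Together they held 19 of the 103639 transcripts listed, 9 of Map3k7, 1 of Tab1, 5 of Tab2 and 4 of Tab3. All 4 genes passed the filter on low counts. Of their transcripts, 11 reached 10 estimated counts in at least 1 library and 9 passed the filter for the transcript test.

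TAK1 is a mitogen-activated protein kinase kinase kinase (MAP3K) that carries signals from receptors for TGF-β, bone morphogenetic proteins, tumour necrosis factor, interleukin-1 and microbial products. TAB1 binds the kinase directly and promotes its activation, while TAB2 and TAB3 are related adaptors that bring it to ubiquitin chains built at activated receptors. Active TAK1 phosphorylates the kinases above JNK and p38 and the IKK complex that leads to NF-κB. TGF-β and bone morphogenetic protein signals are known to shape tendon, cartilage and bone.

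The study asked what part TAK1 signalling plays in cell differentiation and in heterotopic ossification, the formation of bone in soft tissue, after injury. RNA of the hindlimb tendon region was sequenced in 7 libraries from mice of C57BL/6 background. The labels name no engineered allele in any group, call the uninjured mice wild type, and do not tie a library to an animal. The tenotomy group (n = 2) was the cut left Achilles tendon, taken 3 weeks after surgery from mice that also had a burn of 30% of the body surface, made on the back by contact with hot aluminium (60 °C, 18 s). The contralateral group (n = 3) was the uncut right leg of mice given the same burn and tenotomy, also at 3 weeks, so these mice were injured although the sampled tendon was not. The uninjured group (n = 2) came from mice with neither injury, and no time point is given for it. Buprenorphine and isoflurane were part of the injury protocol. Age and sex are not given in the sources used here. Nothing in the labels says whether replicates came from separate animals, so p-values measure the spread between these libraries, which may be technical.

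Libraries held 25927171 to 36725106 estimated counts, but 5 features, led by Gm42418 and Lars2, took 76.4% to 81.4% of them. Outside them a library had 4934057 to 8375626 counts. The 2 uninjured libraries lay apart from each other, each near another group, and whether their labels are right was not tested. The labels were kept as given, so each comparison with uninjured tissue rests on them. Replicate numbers follow accession order, only name libraries and pair none. Over the log2 CPM (counts scaled for library size) of all 16028 genes tested, uninjured replicate 1 lay at a distance of 59.6 and 61.1 from the tenotomy libraries, at least 125 from the contralateral libraries and 114 from uninjured replicate 2. Uninjured replicate 2 lay 64.5 to 67.4 from the contralateral libraries. Skeletal muscle markers divided the libraries in the same way. The summed CPM of 14 markers was 9450 to 12500 in contralateral tissue, 1040 in each tenotomy library, 1280 in uninjured replicate 1 and 9160 in uninjured replicate 2. All 14 were lower in tenotomy than in contralateral tissue by the test used below. All 8 tendon markers were detected in every library. Their summed CPM was 878 to 1230 in contralateral, 4770 and 4790 in tenotomy and 4400 and 3950 in uninjured tissue. Most of each sum came from Col1a1 and Col1a2, so it mainly follows these genes. Fmod (74.1 to 137 CPM in contralateral, 108 and 107 in tenotomy) and Mkx overlapped between these groups. Scx, Tnmd, Thbs4 and Comp were higher in both tenotomy libraries than in every contralateral library, as were Col1a1, Col1a2 and 31.9% of all genes tested. In uninjured replicate 2, Scx, Thbs4 and Comp lay within the contralateral range, and Tnmd and Mkx above it.

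The Map3k7 transcripts are shown first, because the measured level of the gene depended on which of them were counted. The gene (ENSMUSG00000028284.13) lies on chromosome 4 from 31964097 to 32023467 of GRCm38, plus strand. The 4 transcripts that code for protein span 5416 to 5773 bases and differ by 2 cassette exons. Map3k7-201 has 17 exons including both, Map3k7-202 lacks the first, Map3k7-203 lacks both and Map3k7-204 has only the first. The first is exon 12 of Map3k7-201 (chr4:31994874-31994954), 81 bases long and so a multiple of 3, and it lies wholly in the coding sequence. The second is exon 16 (chr4:32017037-32017152), 116 bases long, which is not a multiple of 3, and it is also wholly coding where it is used. The coding transcripts also start at different positions, from 31964097 (Map3k7-201) to 31964263 (Map3k7-204). Apart from these starts, reads tell them apart by the cassette exons and by the junctions formed when those are skipped. In the junctions below, small letters are the end of the upstream exon and capitals the start of the downstream exon.
81-base exon: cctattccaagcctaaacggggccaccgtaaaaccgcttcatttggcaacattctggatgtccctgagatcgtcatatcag
junction without it: tcgtggcgactgcagGTAACGGGCAACCAA
116-base exon: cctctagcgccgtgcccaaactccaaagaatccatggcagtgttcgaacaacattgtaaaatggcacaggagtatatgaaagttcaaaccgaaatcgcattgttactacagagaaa
junction without it: gatcaccagctacagGCAAGAACTAGTTGC

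The other 5 Map3k7 transcripts are short processed transcripts of 538 to 865 bases that are not annotated as coding. Between 55.8% and 97.7% of their bases also lie in exons of the coding transcripts. Splice junctions found only in the short transcripts were not examined. The other bases of the short transcripts lie in no exon of a coding transcript. Map3k7-209 has 19 such bases, Map3k7-207 has 56, which directly follow the 81-base exon (chr4:31994955-31995010), and Map3k7-206 has a separate exon of 78 bases (chr4:31977479-31977556).
Map3k7-209: gaccctgccttttttgtag
Map3k7-207: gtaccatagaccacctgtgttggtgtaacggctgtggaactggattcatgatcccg
Map3k7-206: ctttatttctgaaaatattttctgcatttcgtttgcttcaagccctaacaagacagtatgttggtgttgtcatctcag

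Tab1 (ENSMUSG00000022414.8) lies on chromosome 15 from 80133127 to 80161707, plus strand, and only Tab1-201 of its 3 annotated transcripts was listed. Tab2 (ENSMUSG00000015755.16) lies on chromosome 10 from 7905653 to 7956230, minus strand. Tab3 (ENSMUSG00000035476.9) lies on chromosome X from 85574022 to 85634469, plus strand. No exon of another annotated gene touched an exon of the 4 genes.

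Levels per length were compared first, as TPM (abundance scaled for transcript length) summed over protein-coding transcripts. Tab2 was the highest of the 4 genes, with a lowest, median and highest TPM over the 7 libraries of 0.304, 0.417 and 0.544. Map3k7 followed with 0.136, 0.190 and 0.270. Tab1 was at 0.0445, 0.0580 and 0.0772, and Tab3 at 0.0282, 0.0459 and 0.118. These TPM are low in absolute terms because features of under 50 bases effective length took 91.4% to 93.3% of all TPM. Ranked by median among 13828 genes with a coding TPM, Tab2 stood at percentile 86.1, Map3k7 at 67.8, Tab1 at 30.7 and Tab3 at 24.9.

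The kinase and its adaptors kept the same order in most libraries. Tab2 exceeded Map3k7 in 7 of 7 libraries, by 1.62 to 2.59 times in TPM, and Map3k7 exceeded Tab1 in 7 of 7, by 2.61 to 4.63 times. Tab1 and Tab3 were not separated, since Tab1 was higher in only 5 of 7 libraries. In the other 2, contralateral replicate 1 and uninjured replicate 2, the short coding transcripts Tab3-202 and Tab3-203 held 2.91 and 1 counts. Over all transcripts, up to 3 counts outside Tab3-201 made up 52.8% to 72.4% of the TPM of Tab3 in the 4 libraries that had any. Against Tab3-201 alone, the full-length transcript with 94.4% to 100% of the counts, Tab1 was higher in 7 of 7 libraries, by 1.03 to 1.79 times.

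Among 19 genes with a Map3k symbol, Map3k7 had rank 4 by median coding TPM. Map3k20, also called ZAK and known from muscle and from ribosome stress, was above it in 7 of 7 libraries with a range of 0.354 to 2.39 TPM. Map3k5 (0.178 to 0.371), which encodes the stress kinase ASK1, and Map3k3 (0.188 to 0.272) overlapped the range of Map3k7. Map3k1 (0.125 to 0.194) and Map3k4 (0.107 to 0.177) overlapped it from below, although Map3k7 exceeded Map3k4 in 7 of 7 libraries.

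**Figure D1:**
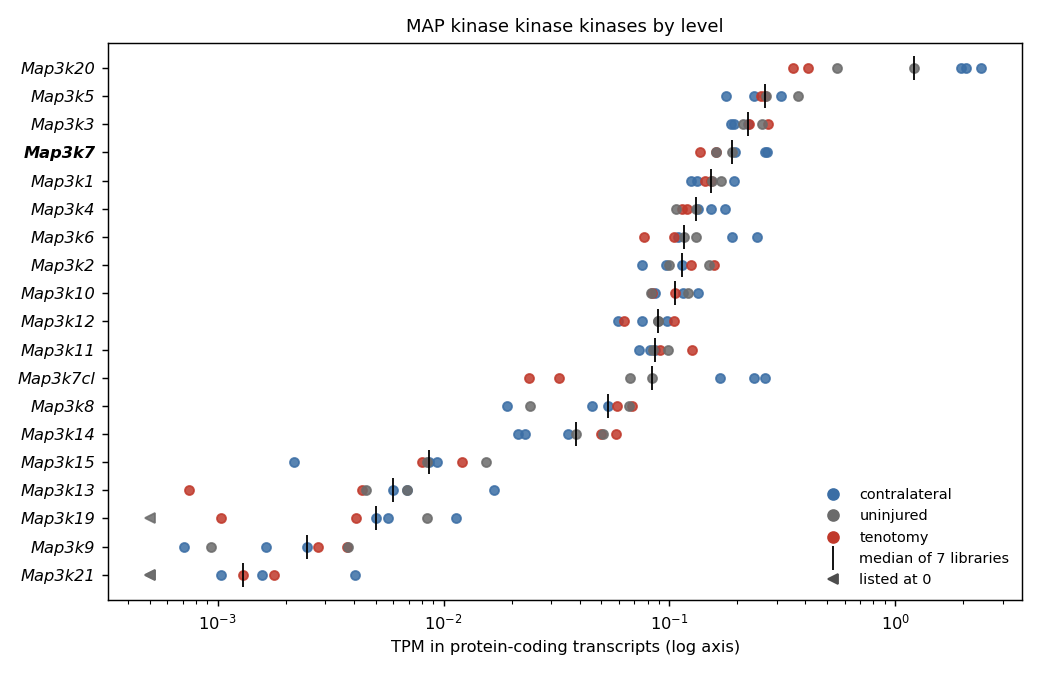
TPM in protein-coding transcripts, on a log axis, of Map3k7 (bold) and 18 other genes with a Map3k symbol, with 1 point per library coloured by group and a bar at the median of 7 libraries. Map3k7, between 0.136 and 0.270 TPM, lies among Map3k5, Map3k3 and Map3k1, and the tenotomy libraries and uninjured replicate 1 hold its lowest values.

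Tenotomy against contralateral tissue compared the cut tendon with the uncut tendon of mice given the same injuries. All 4 genes had a lower mean CPM at the tenotomy site. For Map3k7 and Tab3 the fall passed the edgeR quasi-likelihood test after adjustment over all genes, whereas Tab1 and Tab2 did not pass. Calls were common in this comparison: 29% of all genes tested were called, with 15.4% of all genes called lower and 13.6% called higher. In a bulk sample, fewer cells of a type and less RNA per cell cannot be told apart.

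Map3k7 had 273, 353 and 298 estimated counts in the contralateral libraries, 231 and 212 in the tenotomy libraries and 181 and 235 in the uninjured libraries. Scaled to CPM, these were 10.2, 10.05 and 9.21 in contralateral, 6.28 and 7.07 in tenotomy, and 6.50 and 8.09 in uninjured tissue. Both tenotomy libraries lay below every contralateral library, and uninjured replicate 1 lay between them. The mean fell from 9.83 ± 0.541 (SD, n = 3) to 6.67 ± 0.554 (SD, n = 2), which is 0.679 of the contralateral level. On the log2 scale this was a change of -0.56 with an SE of 0.16 (edgeR adjusted p = 0.0342).

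Tab3, the adaptor related to TAB2, had 63, 77 and 76 counts in contralateral, 51 and 48 in tenotomy and 48 and 54 in uninjured libraries. Its CPM were 2.36, 2.19 and 2.35 in contralateral, 1.39 and 1.60 in tenotomy, and 1.73 and 1.86 in uninjured tissue. The 3 groups did not overlap, with tenotomy the lowest. Taken pair by pair, 31.8% of all genes were likewise lower in tenotomy than in contralateral libraries without overlap. The shares were 20.4% for tenotomy below uninjured and 18.9% for contralateral above uninjured libraries. The share of genes with all 3 was not computed. The mean fell from 2.30 ± 0.0951 (SD, n = 3) to 1.49 ± 0.151 (SD, n = 2), by -0.62 on the log2 scale with an SE of 0.16 (edgeR adjusted p = 0.0266). Counting error alone was 11.4% to 14.4% of each Tab3 count, against 5.32% to 7.43% for Map3k7.

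Tab2, the most abundant adaptor, was at 12.7, 11.3 and 12.6 CPM in contralateral, 9.22 and 8.97 in tenotomy, and 9.52 and 11.8 in uninjured tissue, from 265 to 408 counts per library. Its tenotomy libraries also lay below all others, and 20.4% of all genes were likewise lower in tenotomy than in uninjured libraries. The log2 fold change against contralateral tissue was -0.42 (SE 0.16, edgeR adjusted p = 0.0764), which missed the threshold. Tab1, which had 25 to 48 counts per library, was at 1.01, 1.37 and 1.299 CPM in contralateral, 0.925 and 0.833 in tenotomy, and 1.01 and 1.38 in uninjured tissue. Its log2 fold change was -0.48 (SE 0.24, edgeR adjusted p = 0.165), with a counting error of 14.4% to 20.0% per library. The contralateral and tenotomy libraries did not overlap for any of the 4 genes, with tenotomy lower. The same was true of 31.8% of all genes tested.

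**Figure D2:**
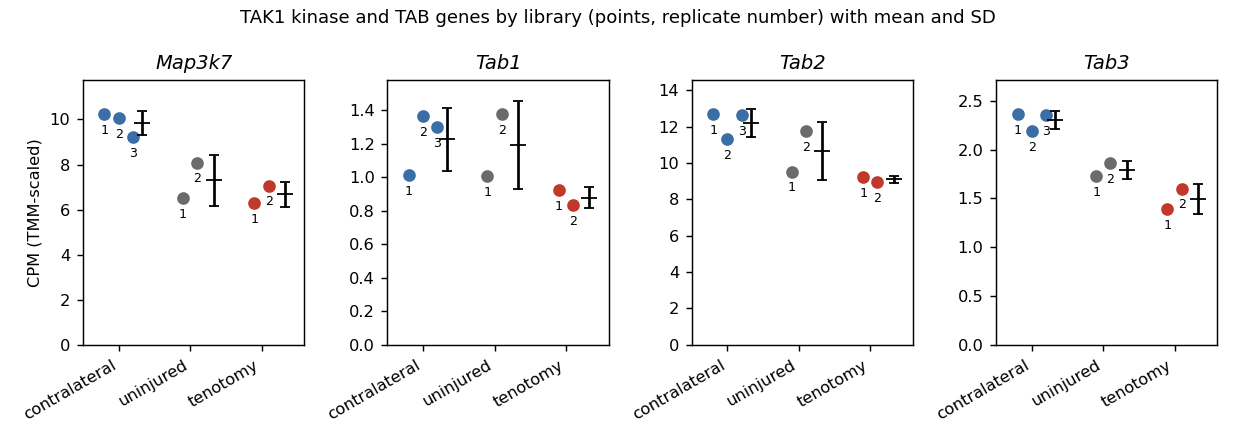
CPM after TMM scaling of Map3k7, Tab1, Tab2 and Tab3 in each library (points, labelled with the replicate number), with the group mean and SD beside them (n = 3, 2 and 2). Both tenotomy points lie below all contralateral points for each gene, and uninjured replicate 1 lies lower than uninjured replicate 2 for all 4.

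The ratio of one member to another within a library does not depend on library scaling. Map3k7 had 0.809, 0.889 and 0.729 counts per count of Tab2 in contralateral, 0.680 and 0.787 in tenotomy, and 0.683 and 0.686 in uninjured libraries. Tab3 had 0.230, 0.218 and 0.255 counts per count of Map3k7 in contralateral, 0.221 and 0.227 in tenotomy, and 0.265 and 0.230 in uninjured libraries. Both ratios overlapped between contralateral and tenotomy tissue. Tab3 per count of Tab2 was 0.186, 0.194 and 0.186 in contralateral, 0.1504 and 0.178 in tenotomy, and 0.181 and 0.158 in uninjured libraries. Tenotomy values overlapped the uninjured but not the contralateral ones. The nearest contralateral and tenotomy values were 0.186 and 0.178, where counting error alone was 11.4% to 14.4% of each Tab3 count. The share of gene pairs without overlap was not computed. No test was made of these ratios.

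The calls of Map3k7 and Tab3 needed every contralateral and tenotomy library. Without any 1 contralateral or tenotomy library neither passed (edgeR adjusted p = 0.0675 to 0.228), although their log2 fold changes stayed between -0.48 and -0.73. In those fits no gene of the whole table passed. Leaving out uninjured replicate 1 or replicate 2 gave -0.56 and -0.56 for Map3k7 and -0.62 and -0.63 for Tab3. With only the contralateral and tenotomy libraries fitted, 46.1% of all genes were called. Among them were Map3k7 (edgeR adjusted p = 0.00113), Tab2 (0.00439) and Tab3 (0.00843), but not Tab1 (0.104). DESeq2 called none of the 4 (adjusted p = 0.0686 for Map3k7 and 0.147 for Tab3) and 23.4% of all genes. The contralateral libraries and tenotomy replicate 1 carry title numbers of one series. Within it, tenotomy replicate 1 differed from the contralateral mean by -0.64, -0.37, -0.40 and -0.70 in log2 CPM for Map3k7, Tab1, Tab2 and Tab3.

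With TPM in place of counts, none of the 4 genes passed, while limma called 15.7% of all genes. The TPM of Map3k7 was 0.514, 0.440 and 0.302 in contralateral, 0.349 and 0.459 in tenotomy, and 0.464 and 0.477 in uninjured libraries. Contralateral and tenotomy values overlapped, and the difference on the log2(TPM + 0.1) scale was -0.03 (SE 0.23, limma adjusted p = 0.956). For Tab1, Tab2 and Tab3 the differences on that scale were -0.18, -0.29 and -0.12 (limma adjusted p = 0.306, 0.324 and 0.750).

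The 5 short transcripts of Map3k7 weighed differently in the 2 measures. They had 18.4, 14.5 and 12.4 counts in contralateral, 22.0 and 29.7 in tenotomy, and 23.0 and 22.3 in uninjured libraries. That was 4.11% to 6.75% of the gene's counts in contralateral, 9.54% and 14.02% in tenotomy, and 12.7% and 9.51% in uninjured libraries, so the contralateral range lay below the others. None of these short transcripts passed the filter for the transcript test, so this difference was not tested. How often other genes show such a separation was not computed. In TPM, which divides by length, the same transcripts made up 35.4% to 48.5% of the gene in contralateral, 61.1% and 64.9% in tenotomy, and 65.2% and 60.1% in uninjured libraries. The coding transcripts alone had a TPM of 0.265, 0.270 and 0.195 in contralateral and 0.136 and 0.161 in tenotomy libraries, which did not overlap. By TPM over all transcripts, 28% of all genes were likewise lower in tenotomy libraries without overlap. The share for coding transcripts alone was not computed. On the log2(TPM + 0.1) scale the difference in the coding TPM of Map3k7 was -0.46 (limma adjusted p = 0.0814). On counts of coding transcripts alone, Map3k7 fell by 0.64 on the log2 scale (edgeR adjusted p = 0.0240).

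**Figure D3:**
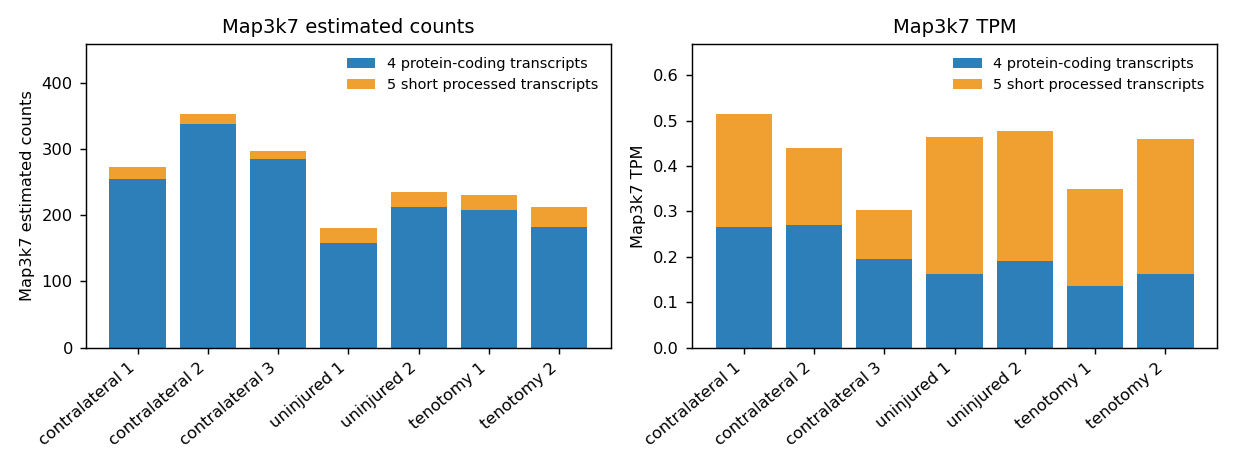
Map3k7 in each library as estimated counts (left) and TPM (right), with bars split into 4 protein-coding and 5 short processed transcripts. The short transcripts are 4.11% to 14.02% of the counts but 35.4% to 65.2% of the TPM, and the total differs between contralateral and tenotomy libraries on the left but overlaps on the right.

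Transcript counts gave no call for any member. At this level 0.00344% of the 29067 transcripts tested were called between tenotomy and contralateral tissue, which is 1 transcript. Map3k7-202, which lacks the 81-base exon, held 55.8% to 88.6% of the gene's counts. Its CPM were 5.69, 8.78 and 8.17 in contralateral, 5.40 and 4.94 in tenotomy, and 3.65 and 6.25 in uninjured libraries, with a log2 fold change of -0.55 between the first groups (edgeR adjusted p = 0.329). Map3k7-201, which has both cassette exons, varied more between libraries of a group than between groups, with 101, 1.74 and 0 counts in contralateral, 0 and 35.9 in tenotomy, and 57.0 and 28.7 in uninjured libraries. Accordingly, the share of coding counts assigned to transcripts with the 81-base exon was 39.7%, 5.81% and 0% in contralateral, 0% and 19.7% in tenotomy, and 36.1% and 13.5% in uninjured libraries. The 116-base exon was in 91.4% to 100% of coding counts. These are shares of estimated assignments between transcripts that share nearly all their bases, and the tables give no error for the assignment.

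Tab2 and Tab3 each had most of their counts in 1 transcript, and Tab1 had only 1 listed, so its share could not vary. Tab2-204, the full-length transcript, held 79.4% to 91.7% of Tab2 counts, and its log2 fold change was -0.38 (edgeR adjusted p = 0.218). Tab3-201 had -0.60 (edgeR adjusted p = 0.129) and Tab1-201 had -0.46 (edgeR adjusted p = 0.378). Tab2-201, a coding transcript with 2 exons, had 5.09% and 5.13% of Tab2 counts in the uninjured libraries and 1.59% to 2.58% in the other 5. By CPM it was also lower in every tenotomy and contralateral library than in both uninjured libraries. Of all transcripts tested, 17.5% were likewise lower in tenotomy and 13.7% in contralateral than in uninjured libraries. Tab2-201 rested on 5.37 to 17.6 counts. Its log2 fold change against uninjured tissue was -1.22 for contralateral (edgeR adjusted p = 0.508) and -1.42 for tenotomy tissue (0.738). Unequal change among the transcripts of a gene was tested with edgeR's diffSpliceDGE, which called 1.34% of 6142 genes between tenotomy and contralateral tissue. Neither Map3k7 (adjusted p = 1 over 3 transcripts) nor Tab2 (0.962 over 4) was among them, and Tab1 and Tab3 had only 1 transcript that passed the filter. The same test called 0.521% of genes between tenotomy and uninjured tissue and 0.798% between contralateral and uninjured tissue, again without Map3k7 or Tab2.

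Against uninjured tissue, the tenotomy site showed no call for the 4 genes. The log2 fold changes were -0.13 for Map3k7, -0.44 for Tab1, -0.23 for Tab2 and -0.27 for Tab3 (SE 0.17 to 0.27, edgeR adjusted p = 0.546 to 0.775). The edgeR test called 0% of all genes here, with 1741 of 16028 genes at an unadjusted p under 0.05, and DESeq2 called 145 genes. Tab1, Tab2 and Tab3 were lower in both tenotomy libraries than in both uninjured libraries, as were 20.4% of all genes, and Map3k7 overlapped. By TPM none of the 4 passed either, while limma called 0.00624% of all genes, which is 1 gene. The 95% intervals of the log2 fold change were -0.53 to 0.27 for Map3k7 and -0.68 to 0.15 for Tab3. Without uninjured replicate 1 they were still not called, with log2 fold changes of -0.28, -0.64, -0.37 and -0.32 in the order above (edgeR adjusted p = 0.0724 to 0.368), while 4275 genes were. Without uninjured replicate 2, Map3k7 stood at 0.04.

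Contralateral against uninjured tissue compared uncut tendon of injured and of uninjured mice. Again 0% of all genes passed edgeR, with 3084 at an unadjusted p under 0.05, and DESeq2 called 223 genes. Map3k7 was at 9.83 CPM ± 0.541 (SD, n = 3) in contralateral and 7.30 ± 1.12 (SD, n = 2) in uninjured tissue, a difference of 0.43 in log2 units, with an SE of 0.16 (edgeR adjusted p = 0.228). All contralateral libraries lay above both uninjured libraries for Map3k7 and for Tab3 (0.36, SE 0.16, edgeR adjusted p = 0.267), as for 18.9% of all genes. Tab2 (0.20, edgeR adjusted p = 0.490) and Tab1 (0.05, edgeR adjusted p = 0.924) overlapped. By counts, the value for Map3k7 moved with the uninjured library used. It was 0.60 and called with replicate 1 alone (edgeR adjusted p = 0.00728, with 5393 genes called), and 0.28 with replicate 2 alone (edgeR adjusted p = 0.497, with 105 genes called). With 1 uninjured library the spread came from the other groups, and the lone library was assumed to vary like them. Both comparisons with uninjured tissue share these libraries, and the first 2 comparisons share the tenotomy libraries.

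**Figure D4:**
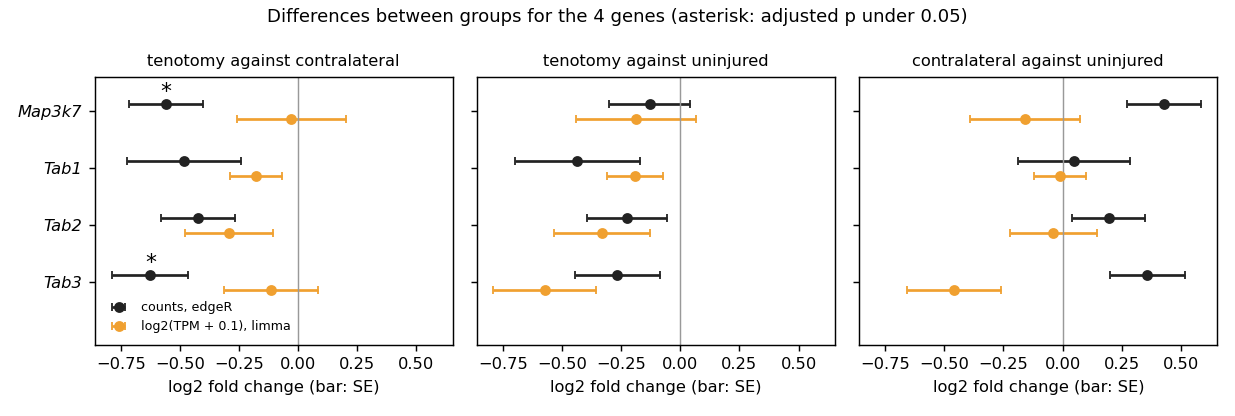
Log2 fold changes with SE of the 4 genes in the 3 comparisons, from counts (edgeR, black) and from log2(TPM + 0.1) (limma, orange), with an asterisk where the adjusted p was under 0.05. By counts all 4 genes lie at or below -0.42 in tenotomy against contralateral tissue, where Map3k7 is near 0 by TPM.

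The genes that feed into TAK1, act below it or restrain it were read from a list of 46 genes, all of which passed the filter. Between tenotomy and contralateral tissue 6 were higher, 10 were lower and 30 did not pass, with a median log2 fold change of -0.12 against 0 over all genes. In the same comparison 13.6% of all genes were called higher and 15.4% lower, and these shares belong beside the counts of each role below. No gene of the list passed in the other comparisons, where edgeR called 0% of all genes, so this is not particular to the list. In both comparisons this changed when libraries were left out, as did the number of all genes called. On the log2(TPM + 0.1) scale all 16 called genes kept their sign, but none of the 6 higher genes passed (limma adjusted p = 0.0625 to 0.202), while 6 of the 10 lower genes did.

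Among 10 TGF-β and bone morphogenetic protein ligands and receptors, 2 rose and 1 fell. Tgfbr2, the type II TGF-β receptor, rose from 13 to 29.3 CPM (log2 fold change 1.18, SE 0.28, edgeR adjusted p = 0.0207), and the ligand gene Tgfb1 rose from 1.66 to 3.66 CPM (1.14, SE 0.34, edgeR adjusted p = 0.0419). Bmp2, a bone-inducing ligand, fell from 1.22 to 0.322 CPM (-1.91, SE 0.44, edgeR adjusted p = 0.0203). Of 15 adaptors and ubiquitin ligases upstream of TAK1, 3 rose. These were Myd88 (1.27, edgeR adjusted p = 0.0442) and Irak4 (0.88, 0.0285), which act at toll-like and interleukin-1 receptors, and Ripk1 (0.83, 0.0225), which acts at the tumour necrosis factor receptor. Ube2v1, a partner of the enzyme that builds ubiquitin chains, fell by 0.84 on the log2 scale (edgeR adjusted p = 0.0175).

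Of 12 genes for kinases or kinase complex subunits downstream of TAK1, 4 fell and none passed as higher, with a median log2 fold change of -0.40. All 4 are MAP kinase kinases. Map2k6 fell from 4.46 to 1.04 CPM (-2.10, SE 0.41, edgeR adjusted p = 0.0167) and Map2k3 from 9.99 to 3.43 CPM (-1.54, SE 0.40, 0.0265), and both encode activators of p38. Map2k7 (-0.71, edgeR adjusted p = 0.0224) and Map2k4 (-0.69, 0.0295) encode activators of JNK. Map2k4 was named here to complete the count. The IKK kinase genes Chuk (0.06, edgeR adjusted p = 0.744) and Ikbkb (0.41, 0.0724) did not pass, and they too were named after their values were seen.

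Among 9 phosphatases and enzymes of the ubiquitin system that restrain TAK1, 4 fell and 1 rose, with a median of -0.46. Ppm1b fell from 23.2 to 5.94 CPM (-1.97, SE 0.37, edgeR adjusted p = 0.0167) and Ppm1l from 16.7 to 5.17 CPM (-1.69, SE 0.37, 0.0181), and both encode protein phosphatases of the PP2C class. Ppp6c, a phosphatase catalytic subunit (-0.80, edgeR adjusted p = 0.0268), and Cyld, a deubiquitinase (-0.66, 0.0330, named to complete the count), also fell. Dusp14 rose by 0.70 (edgeR adjusted p = 0.0444).

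Of 18 other genes with a Map3k symbol 15 passed the filter, and 3 rose, 4 fell and 8 did not pass, with a median of 0.08. Over all genes tested, 13.6% were called higher and 15.4% lower. Map3k14, the NF-κB-inducing kinase (0.95, edgeR adjusted p = 0.0167), Map3k8 (0.85, 0.0486) and Map3k2 (0.60, 0.0424) rose. None of these 3 passed by TPM (limma adjusted p = 0.0649 to 0.454), where the differences were 0.22, 0.57 and 0.30. Map3k20 fell from 74.8 to 14.3 CPM (-2.38, SE 0.45, edgeR adjusted p = 0.0167) and Map3k7cl, a gene related to Map3k7 by sequence and name, from 2.27 to 0.293 CPM (-2.91, SE 0.40, 0.0167). Map3k6 (-0.91, edgeR adjusted p = 0.0365) and Map3k5 (-0.64, 0.0327, named to complete the count) also fell. By TPM, Map3k20 and Map3k7cl passed and Map3k6 and Map3k5 did not (limma adjusted p = 0.269 and 0.779).

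**Figure D5:**
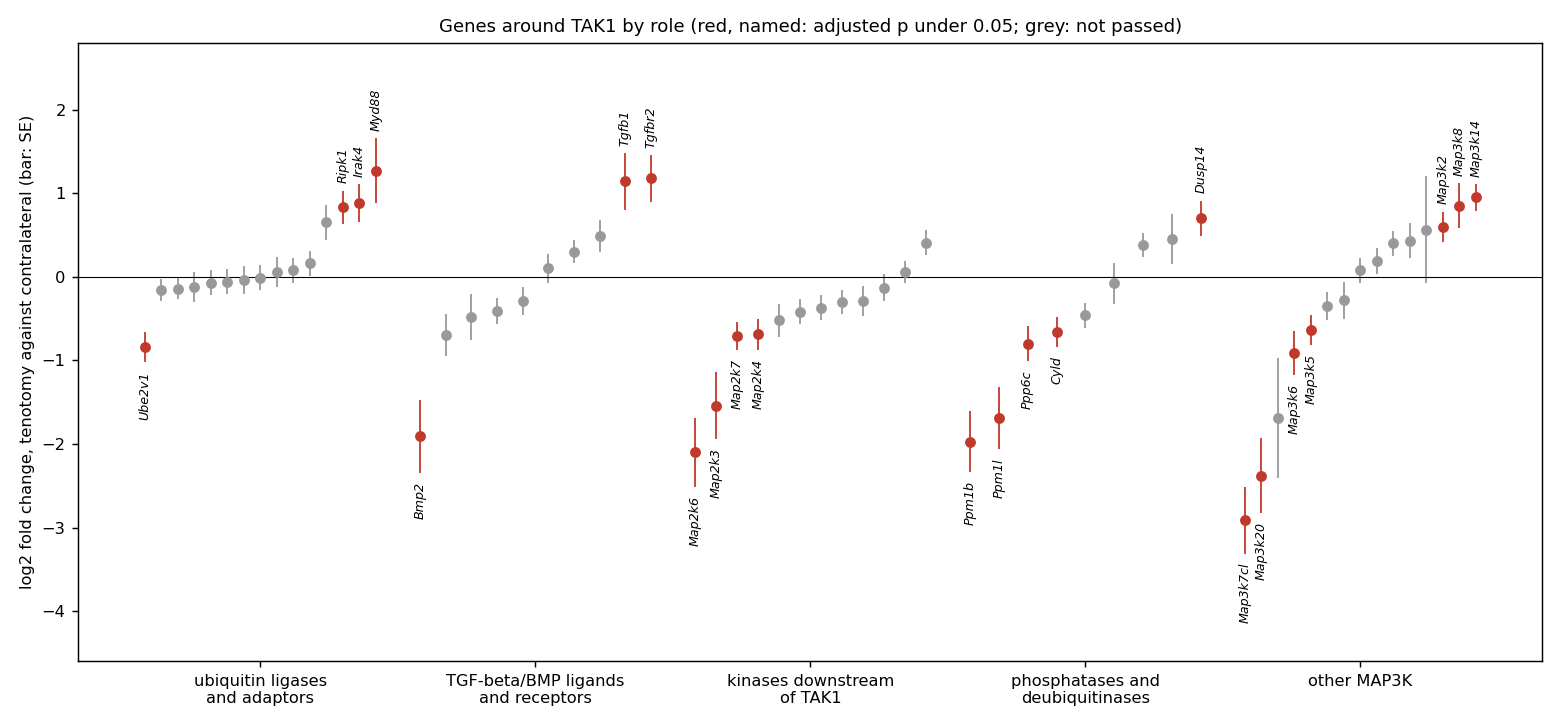
Log2 fold change with SE between tenotomy and contralateral tissue for the tested genes of 5 role groups around TAK1, ordered by value within each group, with genes past an edgeR adjusted p of 0.05 in red and named. In the group downstream of TAK1 the 4 red points, from -2.10 to -0.69, are all MAP kinase kinases.

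Markers of other cell types moved between the same groups, where 13.6% of all genes were called higher and 15.4% lower. Beside the fall of all 14 muscle markers, 7 of 8 macrophage markers were higher at the tenotomy site, with a summed CPM of 17.2 to 23.2 in contralateral, 86.9 and 90.9 in tenotomy, and 91.5 and 22.2 in uninjured tissue. All 7 cartilage markers were higher, with 13 to 18.6 CPM in contralateral, 381 and 380 in tenotomy, and 179 and 27.3 in uninjured tissue. Of 8 tendon markers 4 passed the test as higher. Of 5 adipocyte markers 3 were lower (98.9 to 137 CPM in contralateral against 46.0 and 46.6 in tenotomy). Of 5 erythroid markers 2 were higher (44.3 to 50.1 CPM in contralateral against 69.7 and 65.2 in tenotomy), and of 5 endothelial markers 1 was lower (47.6 to 51.7 against 42.2 and 43.0). Of 4 Schwann cell markers 2 were higher, although their summed CPM was lower (91.5 to 104 against 64.2 and 66.6). No marker of these lists was at 0 in any library. Their part in the values of Map3k7, the TAB genes and the pathway genes was not tested.

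Across the 7 libraries, the genes most like each member in log2 CPM were picked among 4271 protein-coding genes by Pearson r. They were Cct7, Pnrc1 and Inppl1 for Map3k7 (r of 0.990 to 0.994), Dnajb6, Syncrip and Anp32e for Tab3 (0.991 to 0.994), Arhgap20 and Dnajc7 for Tab2 (0.993 and 0.988), and Notch3, Psma1 and Sun1 for Tab1 (0.968 to 0.975). Between members r was 0.93 for Map3k7 with Tab3, 0.90 for Tab2 with Tab3, 0.87 for Map3k7 with Tab2, and 0.60 to 0.72 for Tab1 with each of the others. These are descriptions over 7 libraries that share scaling and fall into groups, and the closest genes were the highest of many.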

How the data were processed

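RNA of hindlimb tendon was sequenced in 7 libraries, prepared from total RNA with a TruSeq RNA kit, per the labels' protocols. The submitters' processing notes name FastQC 0.11.4 and kallisto. They give the build as GRCh38, a human build name, whereas the deposited transcript identifiers are those of mouse. Each deposited table holds length, effective length, estimated counts (not normalized) and TPM per transcript, per the file headers. The TPM deposited by the authors have an equal sum in every library.

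Identifiers were matched without version to GENCODE M21 (GRCm38), which placed 101510 of 103639, 57625 of them with the same version. The 2129 others were kept as single features. Estimated counts and TPM were summed per gene, and counts rounded. Features kept by filterByExpr (minimum count 10, by group) left 16028, called genes here. The main test was edgeR 4.0.16 quasi-likelihood after TMM scaling, fitted to all 7 libraries with a mean per group (R 4.3.3). TPM were tested with limma 3.58.1 on log2(TPM + 0.1), and transcripts with edgeR and diffSpliceDGE. P-values were adjusted by Benjamini-Hochberg over all features of a table, at a threshold of 0.05. The scripts were tested on simulated data. DESeq2 was version 1.42.0. Sequences were read from GRCm38.

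The members and gene lists were chosen with earlier results of these data known. Named were the 4 genes and their transcripts with at least 10 counts, up to 3 largest rises and falls past the threshold per role of each list, and the 3 genes most like each member (mean log2 CPM of at least 2). One gene that this rule names is not reported here. Exceptions are marked. Alternatives were other scalings and tools, no or a stricter filter, only the groups compared, the title-number series as a covariate, length-scaled TPM, coding transcripts only, other pseudocounts and leaving out each library. Removal of the 5 most abundant features before scaling was chosen after the data were seen. Estimated counts carry counting and assignment error, and the counting error printed covers only the first.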

Additional observations from a re-analysis of the deposited data

How the results depend on the processing

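For tenotomy against contralateral counts, the log2 fold changes of the 4 genes stayed below 0 in 16 of 16 alternatives other than length-scaled TPM (-0.65 to -0.45 for Map3k7, -0.60 to -0.37 for Tab1, -0.48 to -0.31 for Tab2 and -0.73 to -0.51 for Tab3). The number of the 4 genes called was 2, with 29% of all genes called. It was 1 with upper quartile scaling (29.9% of all genes), where Tab3 remained and which shifted the median of all genes by 0.11. It was 0 with DESeq2 (23.4%), with no filter (17.3%) and with length-scaled TPM (20.2%). Leaving out libraries gave 0 to 3, with 0% to 43.5% of all genes called. Fitting only the 2 groups compared gave 3 genes (46.1%) and 1 transcript (Tab2-204), and leaving out libraries gave 0 to 1 transcript. Between contralateral and uninjured tissue, leaving out libraries gave 0 to 1 gene against 0. Of the pathway list, 4 to 11 genes were called higher and 8 to 17 lower over the alternatives that kept all libraries of these groups, in which 17.3% to 46.1% of all genes were called, and 0 to 11 and 0 to 17 when libraries were left out. With length-scaled TPM Map3k7 turned to 0.015 (edgeR adjusted p = 0.969) in tenotomy against contralateral and -0.12 in contralateral against uninjured tissue, and Tab3 to -0.86 in the latter. Length-scaled TPM weights short transcripts up by construction.

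Other signs turned only among values that passed no test, and the cause was not tested. With the series of title numbers as covariate, Map3k7 was at 0.12 in tenotomy against uninjured tissue, and upper quartile scaling put Tab1 at -0.03 in contralateral against uninjured tissue. TPM divided by TMM factors put Map3k7 at 0.043 in tenotomy against contralateral and Tab1 and Tab2 each at 0.007 in contralateral against uninjured tissue. Coding transcripts alone gave TPM differences of 0.31 for Map3k7, 0.042 for Tab2 and 0.12 for Tab3 in contralateral against uninjured tissue. When libraries were left out, counts gave -0.28 to 0.036 for Map3k7 in tenotomy against uninjured tissue and -0.16 to 0.30 for Tab1 in contralateral against uninjured tissue. TPM then gave -0.20 to 0.13 for Map3k7 and -0.30 to 0.071 for Tab3 in tenotomy against contralateral tissue, and -0.29 to 0.014 for Map3k7 and -0.076 to 0.052 for Tab1 in contralateral against uninjured tissue. Transcript counts gave -0.32 to 0.51 for Map3k7-202 and -0.28 to 0.11 for Tab2-204 in tenotomy against uninjured tissue, and -0.19 to 0.29 for Tab1-201 in contralateral against uninjured tissue. No paired analysis was possible because the labels give no replicate numbers and tie no library to an animal, and the numbers used here only name libraries. The depth of 25 to 48 counts for Tab1 limits what can be told of it.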
